A study of Mus musculus with 6 samples.

Results

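The genes described here encode 49 proteins of the lysosome or of its transcriptional control, chosen by name with earlier results of these data known. The proteins are acid hydrolases, those that carry lipids out of the lysosome, those of its membrane and proton pump, granulin, and the transcription factors Tfeb and Tfe3. Of the 49, 48 were measured among the 19877 genes of the deposited table, and Ctss was not analysed here. Transcript levels are in FPKM, which scales fragments to gene length and library depth, and were compared between mouse cells with a scrambled hairpin and cells with a hairpin against Ifit1. All 6 libraries came from ADSCs labelled wild type, an abbreviation commonly used for adipose-derived stem cells. There were 3 scrambled and 3 knockdown libraries, and each of 3 labelled batches held 1 of each group. The sources used here do not give the age and strain of the animals, the position that the hairpin targets, whether the cells are a clone, or whether the libraries came from separate cultures. The p-values therefore set the group difference only against the spread among these samples, and that spread may be technical.

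The lysosome is the acidic compartment in which cells break down proteins, glycans and lipids taken up from outside or delivered by autophagy. Its hydrolases are tagged with mannose 6-phosphate in the Golgi and sorted by receptors that recognise the tag, and a proton pump, the V-ATPase, keeps the lumen acidic. TFEB and TFE3 are basic helix-loop-helix factors that enter the nucleus when the kinase mTORC1 at the lysosome is inactive, and they bind E-box letters in the promoters of many lysosomal genes. In stromal cells lysosomal proteases also take part in the turnover of collagen and other matrix proteins.

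Ifit1 RNA was 4.90, 3.75 and 4.97 FPKM in scrambled libraries of batches 1, 2 and 3 and 1.76, 1.48 and 1.51 FPKM in the knockdown ones, in the direction of the labels (log2 fold change −1.27 ± 0.11 (SE), limma adjusted p = 5.71e-05). Per library 32.2 to 40.6 M fragments were recovered. Values below are always listed in the order of batches 1, 2 and 3. Of 11 stromal markers, 10 were abundant enough to test, and Nt5e was at most 0.351 FPKM. Of the stromal markers 6 were lower and 3 higher in knockdown, where 31.1% and 19.8% of all tested genes were. Pdgfra, Pdgfrb, Thy1, Ly6a, Eng and Cd34 were lower (log2 fold change −0.82 to −0.31). Cd44, Itgb1 and Alcam were higher (0.09 to 0.53), and Vcam1 did not pass. The summed level of the 11 was 573 to 577 FPKM in scrambled and 574 to 595 FPKM in knockdown libraries. Itgb1 alone had means of 296 and 316 FPKM, so the sum does not show the fall of the lower markers. Macrophages are rich in lysosomes, and their markers were nearly absent. Of 9 macrophage markers measured, 7 were under 0.3 FPKM in every library, among them Ptprc and Itgam at 0 in 5 of the 6 libraries each. The macrophage sum was 4.48 to 6.54 FPKM in scrambled and 4.20 to 4.96 FPKM in knockdown libraries and consisted mostly of Cd14, which was higher in knockdown, and Cd74, which was lower. The summed level of 3 osteoclast markers was 1.08 to 1.27 FPKM in scrambled and 0.594 to 0.811 FPKM in knockdown libraries, that of 4 adipocyte markers 9.34 to 10.3 and 6.98 to 8.28 FPKM, and 5 endothelial markers were under 0.3 FPKM throughout. The epithelial and mesothelial genes Krt19 (66.4 to 83.6 FPKM) and Msln (13.1 to 25.4 FPKM) were present, while Epcam (at most 0.255 FPKM) and Upk3b (at most 0.0484 FPKM) were near 0. Krt8 (0.210 to 0.758 FPKM) and Krt18 (0.310 to 1.13 FPKM) were low and below the minimum for testing. Both were lower in every knockdown library than in every scrambled one. Krt19 was higher and Msln lower in knockdown, and the part of these cell markers in the results was not tested.

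Most lysosomal genes were lower in the knockdown libraries, and the changes were modest. Of 46 members abundant enough to test, 30 (65.2%) were lower, 3 (6.52%) were higher and 13 did not pass the threshold, an adjusted p of 0.05 in limma. Among all 10311 tested genes 31.1% were lower and 19.8% higher, or 51.0% in either direction. The median log2 fold change, as knockdown minus scrambled, was −0.24 for the members and −0.05 for all tested genes. On the log2(FPKM + 0.5) scale, which shrinks the change of low genes, 9 of the 46 members fell by at least 0.4. All tested genes that fell as far were not counted, so no share stands beside the 9. Of the tested members 0 changed 2-fold on that scale. Past the threshold 128 of all 10311 tested genes did, so 0 of 46 does not set the members apart. By mean FPKM alone the low gene Ctso was more than 2-fold lower, and so was Ctsf, which was too low to test. The 30 lower members had a median size of 0.31, close to the 0.30 of all lower genes. The summed level of the 48 measured members was 1978 ± 58.5 FPKM (SD, n = 3) in scrambled and 1833 ± 56.8 FPKM in knockdown libraries. In knockdown fewer fragments of a gene per M can reflect less RNA per cell or fewer cells that make it, and these cannot be told apart in bulk samples.

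**Figure D1:**
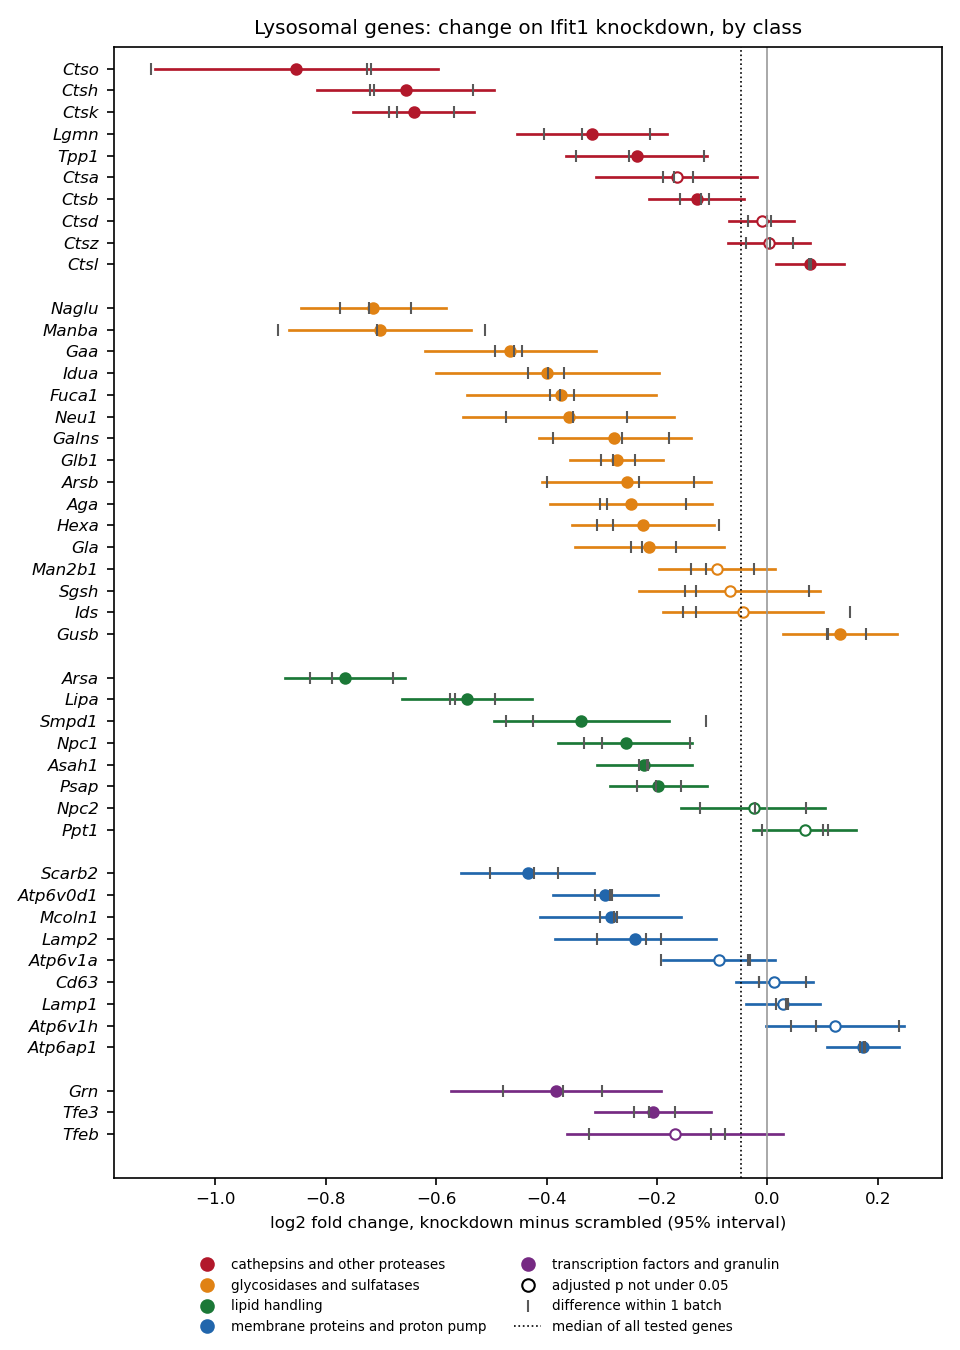
Log2 fold change (knockdown minus scrambled, log2(FPKM + 0.5) scale) of each tested lysosomal gene, by class, with its 95% interval from limma. Filled circles passed an adjusted p of 0.05 and open circles did not, grey ticks are the differences within the 3 batches, and the dotted line is the median of all tested genes (−0.05). Of 46 genes, 30 filled circles lie below 0 and 3 above it.

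The members were lower on balance in each batch. The median of the members was −0.26, −0.24 and −0.22 within batches 1, 2 and 3, and all 33 members past the threshold had the pooled sign in all 3 batches, which the choice of called genes largely fixes. In 31 of the 46 members every knockdown value was under every scrambled value, which 37.3% of all tested genes did, and in 4 every one was above, which 23.8% of all tested genes did. The split of called members depended on scaling. With values rescaled to TPM 33 were lower and 1 higher, with each library centred on the same median 28 were lower and 6 higher, and after quantile normalization 29 were lower and 3 higher. Of all genes called in either direction the higher ones made up 38.9%, against 27.6% with TPM, 56.7% with median centring and 52.4% after quantile normalization.

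The promoters of the lysosomal genes are shown because E-box letters are a feature that many members share. RefSeq promoters (GRCm38.p6, 250 bases before to 50 after the start) matched 42 of the 49 members. Aga, Asah1, Atp6v1h, Ctsb, Ctsh, Galns and Npc1 had none. The letters TCACGTG, on either strand, stood in the promoters of 14 of 42 members (33.3%), against 7.51% of 8239 tested genes and 4.29% of all 27025 genes with a promoter. The core CACGTG, which these letters contain, stood in 38.1% of members, 12.3% of tested genes and 8.09% of all genes. Lamp1 had the most copies of the core, 4 within 62 bases of its start. Windows before the start are given for 4 members that fell, for Lamp1 and Ctsd, which did not pass (Ctsd with the one of its 2 windows nearer the start), and for Mcoln1, a channel gene with the letters at 2 places that fell. Each sequence runs 5′ to 3′ on the gene's strand, and capitals mark TCACGTG or its reverse complement CACGTGA, which overlap in the palindrome.
Arsa, chr15:89477425-89477461, minus strand: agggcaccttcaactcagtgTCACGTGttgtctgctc
Naglu, chr11:101070000-101070046, plus strand: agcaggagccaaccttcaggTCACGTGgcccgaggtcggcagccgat
Gaa, chr11:119267802-119267848, plus strand: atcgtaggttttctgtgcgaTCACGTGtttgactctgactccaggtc
Glb1, chr9:114401009-114401055, plus strand: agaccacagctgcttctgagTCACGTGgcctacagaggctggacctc
Mcoln1, chr8:3500427-3500500, plus strand: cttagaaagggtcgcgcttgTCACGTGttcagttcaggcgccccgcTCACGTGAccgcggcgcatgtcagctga
Lamp1, chr8:13159079-13159160, plus strand: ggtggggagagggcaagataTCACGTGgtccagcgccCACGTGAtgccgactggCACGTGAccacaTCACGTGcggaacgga
Ctsd, chr7:142387899-142387946, minus strand: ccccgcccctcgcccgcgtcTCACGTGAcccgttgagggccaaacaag

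Of 13 tested members with TCACGTG, 8 were lower, 0 higher and 5 did not pass, with a median log2 fold change of −0.27. Of 26 tested members with a promoter and without the letters, 16 were lower, 3 higher and 7 did not pass, with a median of −0.23. The difference between these sets was not tested, and a match describes the letters of the promoter, not binding.

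Among the proteases, the less abundant cathepsins fell most and the most abundant ones changed little. Of 10 tested genes of this class 6 were lower and 1 higher, with a median log2 fold change of −0.20 (−0.12, −0.26 and −0.19 within batches 1, 2 and 3). Ctso (Entrez 229445), a papain-like cysteine protease, was 1.59, 1.68 and 1.63 FPKM in scrambled cells and 0.766, 0.506 and 0.796 FPKM in knockdown cells. Every knockdown library lay below every scrambled one, and knockdown library 2 was lowest. The scrambled mean was 2.37 times the knockdown mean (log2 fold change −0.85 ± 0.11 (SE), limma adjusted p = 0.000419), on 57 to 226 fragments per library. Ctsh (13036), an aminopeptidase as well as a cathepsin, was 3.59, 3.73 and 4.07 FPKM in scrambled and 2.32, 2.08 and 2.27 FPKM in knockdown cells. The groups did not overlap, with a log2 fold change of −0.66 ± 0.07 (limma adjusted p = 0.00015).

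Ctsk (13038), the collagen-degrading cathepsin known from osteoclasts and also made by fibroblasts, was 12.3, 11.9 and 12.2 FPKM in scrambled and 7.48, 7.27 and 8.05 FPKM in knockdown cells. The gap between the groups was wide against their spread, at a log2 fold change of −0.64 ± 0.05 (limma adjusted p = 3.62e-05). Lgmn (19141), legumain, which cuts after asparagine and processes cathepsins, was 35.8, 36.0 and 37.4 FPKM in scrambled and 26.9, 28.5 and 32.2 FPKM in knockdown cells. Knockdown library 3 came nearest to the scrambled libraries without reaching them (log2 fold change −0.32 ± 0.06, limma adjusted p = 0.00242). Tpp1, a tripeptidyl peptidase deficient in a neuronal ceroid lipofuscinosis, fell from 18.2 ± 0.633 to 15.4 ± 1.14 FPKM (SD, n = 3 each; −0.24 on the log2 scale).

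Ctsf (56464) was below the minimum for testing, an FPKM of 1 in 3 libraries. Its level was 0.631, 0.873 and 0.744 FPKM in scrambled and 0.106, 0.105 and 0.336 FPKM in knockdown cells, from 53 to 67 and from 7 to 28 fragments. The groups did not overlap, and in the fit without the minimum it passed (log2 fold change −0.89, limma adjusted p = 0.00967).

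The proteases above 70 FPKM moved by at most 0.13 on the log2 scale. Ctsd, the main aspartic protease of the lysosome, was 141, 138 and 142 FPKM in scrambled and 141, 138 and 139 FPKM in knockdown cells, and the 95% interval of its log2 fold change was −0.07 to 0.05. It passed, lower, after quantile normalization (−0.08, limma adjusted p = 0.0351). Ctsz stood at 71.5 ± 1.12 and 71.6 ± 2.44 FPKM, with an interval of −0.07 to 0.08. Ctsb fell from 93.0 ± 3.08 to 85.1 ± 3.50 FPKM (−0.13, adjusted p = 0.021). That call of Ctsb was lost without the minimum, with median centring, without the limma trend and without scrambled library 3, knockdown library 1 or knockdown library 2. Ctsl, a potent endopeptidase, rose from 85.8 ± 1.25 to 90.6 ± 1.29 FPKM (0.08, adjusted p = 0.0389), and its call was lost without any 1 of the 6 libraries, without the trend, after rescaling to TPM and after quantile normalization. Ctsa, which protects the sialidase and beta-galactosidase, stood at 33.9 ± 2.52 and 30.2 ± 2.25 FPKM (−0.16, adjusted p = 0.0597). It passed, lower, with batch as a replicate block (adjusted p = 0.00566), with limma-voom on recovered fragments (0.0291), on the TPM scale (0.0236), after quantile normalization (0.0496) and when knockdown library 3 was left out (0.0131).

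**Figure D2:**
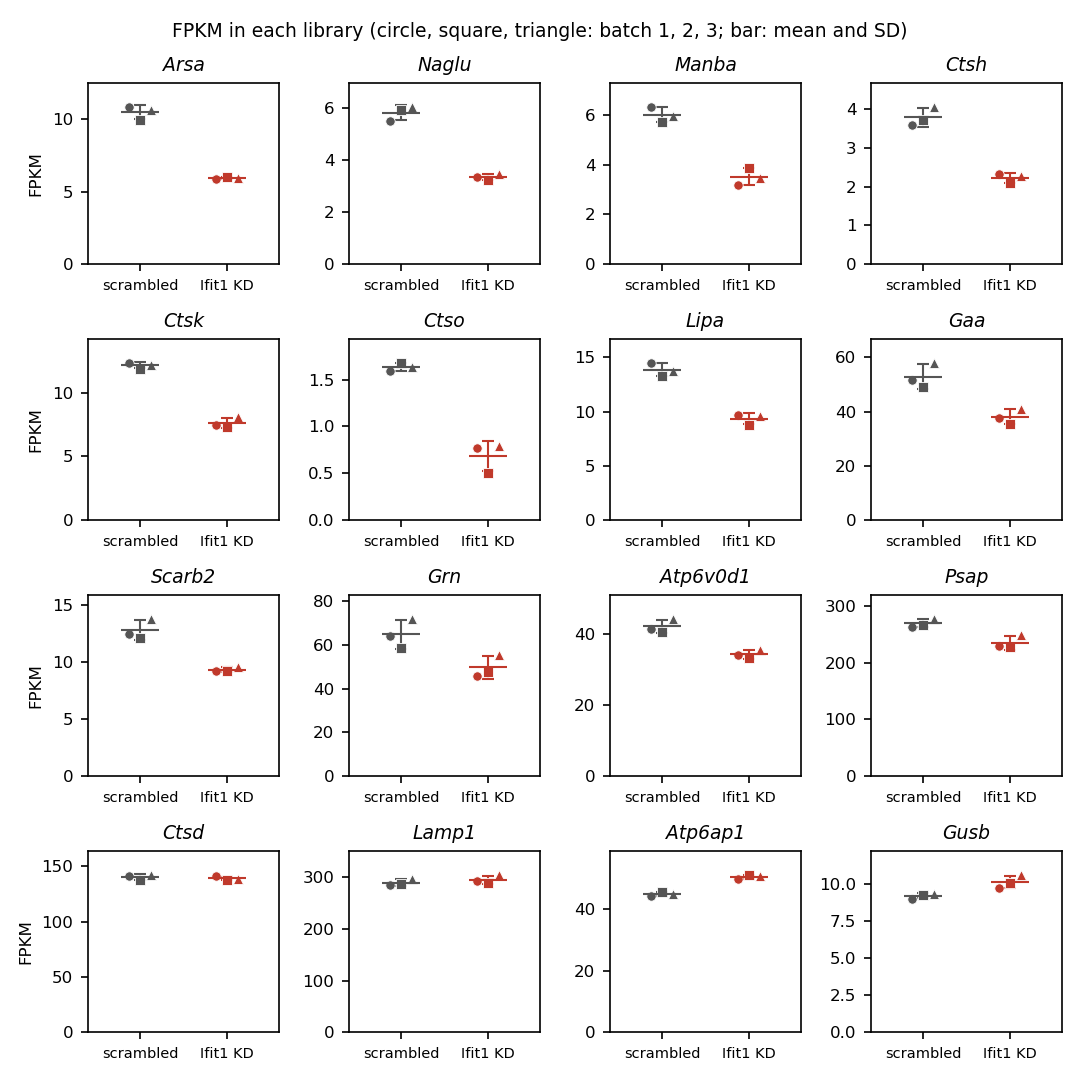
FPKM of 16 lysosomal genes in each library, scrambled in grey and Ifit1 knockdown (KD) in red, with axes from 0. Symbols mark the batch, and bars the mean and SD of 3 libraries. Arsa, Naglu, Manba, Ctsh, Ctsk and Ctso show a gap between the groups, while the points of Ctsd and Lamp1 overlap and those of Atp6ap1 and Gusb are higher in knockdown.

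Glycosidases and sulfatases, which take glycoproteins, glycogen and glycosaminoglycans apart sugar by sugar, were mostly lower. Of 16 tested, 12 (75.0%) were lower, 1 (6.25%) higher and 3 did not pass, with a median log2 fold change of −0.26 (−0.32, −0.27 and −0.23 within batches 1, 2 and 3). All tested genes were lower in 31.1% and higher in 19.8%, with a median of −0.05. The summed level of the 16 was 195, 191 and 208 FPKM in scrambled cells and 158, 155 and 168 FPKM in knockdown cells, a ratio of 0.809 (knockdown over scrambled). Naglu (27419), which removes N-acetylglucosamine from heparan sulfate, was 5.50, 5.91 and 6.05 FPKM in scrambled and 3.33, 3.25 and 3.48 FPKM in knockdown cells. Its groups were far apart (log2 fold change −0.71 ± 0.06, limma adjusted p = 4.86e-05).

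Manba (110173), the beta-mannosidase of N-glycan breakdown, was 6.35, 5.75 and 5.99 FPKM in scrambled and 3.20, 3.88 and 3.47 FPKM in knockdown cells. The difference was −0.89 in batch 1 and −0.51 in batch 2, and −0.70 ± 0.07 over all libraries (limma adjusted p = 0.000131). Gaa (14387), the acid alpha-glucosidase that breaks down glycogen and is deficient in Pompe disease, was 51.5, 49.1 and 58.0 FPKM in scrambled and 37.7, 35.6 and 41.1 FPKM in knockdown cells. Batch 3 was highest in both groups, and the groups did not overlap (−0.47 ± 0.07, adjusted p = 0.000707). Glb1 (12091), the beta-galactosidase behind the senescence stain, was 16.4, 16.7 and 15.9 FPKM in scrambled and 13.4, 13.5 and 13.4 FPKM in knockdown cells. The knockdown values were nearly equal, with a log2 fold change of −0.27 ± 0.04 (adjusted p = 0.000472).

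The enzymes of a single substrate did not all move the same way. Among those of heparan sulfate, Naglu fell by 0.71 and Idua, the alpha-iduronidase, fell by 0.40 on the log2 scale. Idua was 1.21 ± 0.0753 FPKM in scrambled and 0.793 ± 0.0571 FPKM in knockdown cells. Ids, the iduronate sulfatase (log2 fold change −0.04, interval −0.19 to 0.10), and Sgsh, the sulfamidase (−0.07, interval −0.23 to 0.10), did not pass. Gusb, the beta-glucuronidase, rose from 9.21 ± 0.167 to 10.1 ± 0.435 FPKM (0.13, limma adjusted p = 0.0377). That call was lost without the minimum (adjusted p = 0.0555), after rescaling to TPM and without any 1 of scrambled libraries 1, 2 and 3 and knockdown libraries 2 and 3. Idua lost its call after quantile normalization (−0.11, adjusted p = 0.374). The sulfatases of dermatan and keratan sulfate, Arsb (−0.26) and Galns (−0.28), both fell, Arsb not without the minimum (adjusted p = 0.0521).

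Among the enzymes of glycoproteins and glycolipids, Fuca1, the fucosidase, fell by 0.37 on the log2 scale, Neu1, the sialidase, fell by 0.36, Aga, which frees the glycan from asparagine, fell by 0.25, and Hexa, a beta-hexosaminidase subunit, fell by 0.23. Gla, the alpha-galactosidase deficient in Fabry disease, fell from 5.81 ± 0.339 to 4.94 ± 0.224 FPKM (−0.21, limma adjusted p = 0.0156). Its call was lost with median centring, after quantile normalization and without scrambled library 3. Neu1 lost its call after quantile normalization (−0.21, adjusted p = 0.0634). Man2b1, the lysosomal alpha-mannosidase, stood at 12.9 ± 0.248 and 12.1 ± 0.627 FPKM (interval −0.20 to 0.01) and passed, lower, on the TPM scale and when knockdown library 3 was left out.

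Of 8 genes of lipid handling, 6 (75.0%) were lower and 0 higher, with a median log2 fold change of −0.24. All tested genes were lower in 31.1% and higher in 19.8%, with a median of −0.05. The 6 calls were the same number under every alternative tried. Arsa (11883), the sulfatase of sulfatide and deficient in metachromatic leukodystrophy, was 10.9, 9.95 and 10.6 FPKM in scrambled cells and 5.90, 6.04 and 5.95 FPKM in knockdown cells. The knockdown libraries lay close together and far below the scrambled ones, at 1.76-fold lower (log2 fold change −0.76 ± 0.05, limma adjusted p = 2.1e-05). Lipa (16889), the acid lipase that frees cholesterol from its esters, was 14.5, 13.3 and 13.7 FPKM in scrambled and 9.64, 8.77 and 9.61 FPKM in knockdown cells. Batch 2 was lowest in both groups, which did not overlap (−0.54 ± 0.05, adjusted p = 9.42e-05).

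Asah1 (11886), the acid ceramidase, was 61.1, 60.5 and 64.3 FPKM in scrambled and 51.9, 51.9 and 55.3 FPKM in knockdown cells (log2 fold change −0.22 ± 0.04, limma adjusted p = 0.00149). Psap (19156), the precursor of the saposins that present sphingolipids to their hydrolases, was 263, 267 and 277 FPKM in scrambled and 229, 227 and 248 FPKM in knockdown cells (−0.20 ± 0.04, adjusted p = 0.00302). Psap was the most abundant member that fell. Smpd1, the acid sphingomyelinase, fell by 0.34 on the log2 scale, with a difference of −0.11 in batch 2 against −0.42 and −0.47 in batches 1 and 3. The sphingolipid genes Arsa, Asah1, Psap and Smpd1 were thus all lower.

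The 2 Niemann-Pick type C proteins, which pass cholesterol from the lumen to the membrane, differed in their calls. Npc1, the membrane protein, fell from 6.07 ± 0.257 to 5.00 ± 0.175 FPKM (−0.26 ± 0.05, limma adjusted p = 0.00404), and Npc2, its soluble partner, stood at 54.6 ± 3.28 and 53.7 ± 3.70 FPKM (interval −0.16 to 0.11). The difference between these changes was not tested. Ppt1, which removes palmitate from proteins, stood at 16.0 ± 0.296 and 16.8 ± 0.677 FPKM (interval −0.03 to 0.16) and passed, higher, with median centring.

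Membrane proteins and proton pump subunits were the class of smallest change. Of 9 tested genes 4 (44.4%) were lower, 1 (11.1%) higher and 4 did not pass, with a median log2 fold change of −0.09 (−0.04, −0.03 and −0.19 within batches 1, 2 and 3). All tested genes were lower in 31.1% and higher in 19.8%, with a median of −0.05. On so few genes the class stood close to that background, and the difference was not tested. With median centring 4 were lower and 3 higher. The summed level of the 10 measured genes was 752 ± 19.8 FPKM in scrambled and 744 ± 16.1 FPKM in knockdown libraries, and Lamp1 and Cd63 made up most of it. Lamp1, a heavily glycosylated protein of the limiting membrane, was 284, 286 and 297 FPKM in scrambled and 292, 289 and 304 FPKM in knockdown cells (interval −0.04 to 0.10), and passed, higher, with median centring (0.09, limma adjusted p = 0.0227). The tetraspanin Cd63 was 261, 261 and 271 FPKM in scrambled and 274, 258 and 268 FPKM in knockdown cells (interval −0.06 to 0.08). The groups of both overlapped.

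Scarb2 (12492), the LIMP-2 receptor that carries glucocerebrosidase to the lysosome, was 12.5, 12.1 and 13.8 FPKM in scrambled and 9.17, 9.20 and 9.57 FPKM in knockdown cells. The groups did not overlap (log2 fold change −0.43 ± 0.05, limma adjusted p = 0.000283). Mcoln1 (94178), the calcium channel TRPML1, was 17.0, 17.7 and 19.3 FPKM in scrambled and 14.0, 14.6 and 15.5 FPKM in knockdown cells (−0.28 ± 0.06, adjusted p = 0.00322). Lamp2, needed for the fusion of autophagosomes with lysosomes, fell from 38.5 ± 2.65 to 32.5 ± 2.59 FPKM (−0.24, adjusted p = 0.0131, and adjusted p = 0.0581 without the minimum). Cln3, the gene of juvenile Batten disease, was below the minimum, at 0.145, 0.263 and 0.204 FPKM in scrambled and 0.147, 0.135 and 0.159 FPKM in knockdown cells, from 17 to 38 fragments, with groups that overlapped (adjusted p = 0.246 without the minimum).

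Pump subunits went both ways. Atp6v0d1 (11972), a subunit of the membrane sector, was 41.7, 40.8 and 44.4 FPKM in scrambled and 34.2, 33.3 and 35.7 FPKM in knockdown cells (log2 fold change −0.29 ± 0.04, limma adjusted p = 0.000595). Atp6ap1 (54411), an accessory subunit that helps the membrane sector assemble, was 43.9, 45.2 and 44.6 FPKM in scrambled and 49.7, 50.9 and 50.4 FPKM in knockdown cells. It was the only member called higher under every alternative tried (0.17 ± 0.03, adjusted p = 0.00132), with 0.18, 0.17 and 0.18 within batches 1, 2 and 3. In the catalytic sector Atp6v1a stood at −0.09 (interval −0.19 to 0.01) and Atp6v1h, a regulatory subunit, at 0.12 (interval −0.00 to 0.25). Their groups did not overlap, Atp6v1a lower and Atp6v1h higher, but neither passed. Atp6v1a passed after rescaling to TPM, and Atp6v1h with median centring and after quantile normalization.

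The transcription factor Tfe3 (209446) was 17.3, 17.6 and 18.3 FPKM in scrambled cells and 14.9, 14.9 and 16.2 FPKM in knockdown cells. It was lower in each knockdown library than in each scrambled one (log2 fold change −0.21 ± 0.05, limma adjusted p = 0.00554). Tfeb (21425), at 1.65, 1.70 and 1.52 FPKM in scrambled and 1.54, 1.26 and 1.39 FPKM in knockdown cells, overlapped between the groups and did not pass (−0.17 ± 0.09, adjusted p = 0.134). On the per-length FPKM scale Tfe3 was the more abundant of the pair in every library. Grn (14824), the progranulin gene, whose product is cut to granulins in the lysosome, was 64.2, 58.6 and 71.8 FPKM in scrambled and 45.9, 47.5 and 55.4 FPKM in knockdown cells (−0.38 ± 0.08, adjusted p = 0.00522).

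The level of a gene and its direction moved together in these libraries, so the members are given by level. Of genes with a mean of 3 to 10 FPKM, 10 of 12 members were lower, against 36.8% of all tested genes. At 10 to 30 FPKM 10 of 14 members were lower, against 29.0%, and at 30 to 100 FPKM 7 of 12 were lower, against 22.0%. At 100 FPKM and over 1 of 4 was lower, against 16.0%, and under 3 FPKM 2 of 4 were lower, against 39.1%. Members called higher numbered 1 at 3 to 10 FPKM and 2 at 30 to 100 FPKM, with 0 in the other ranges. All tested genes were higher in 6.32%, 10.9%, 21.0%, 35.7% and 53.7% from the lowest to the highest range. The median log2 fold change was −0.32 for members and −0.09 for all tested genes at 3 to 10 FPKM, −0.25 and −0.03 at 10 to 30 FPKM, −0.19 and 0.03 at 30 to 100 FPKM, and 0.00 and 0.09 at 100 FPKM and over. Under 3 FPKM it was −0.28 and −0.18. In each range the members' median lay below that of all genes.

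**Figure D3:**
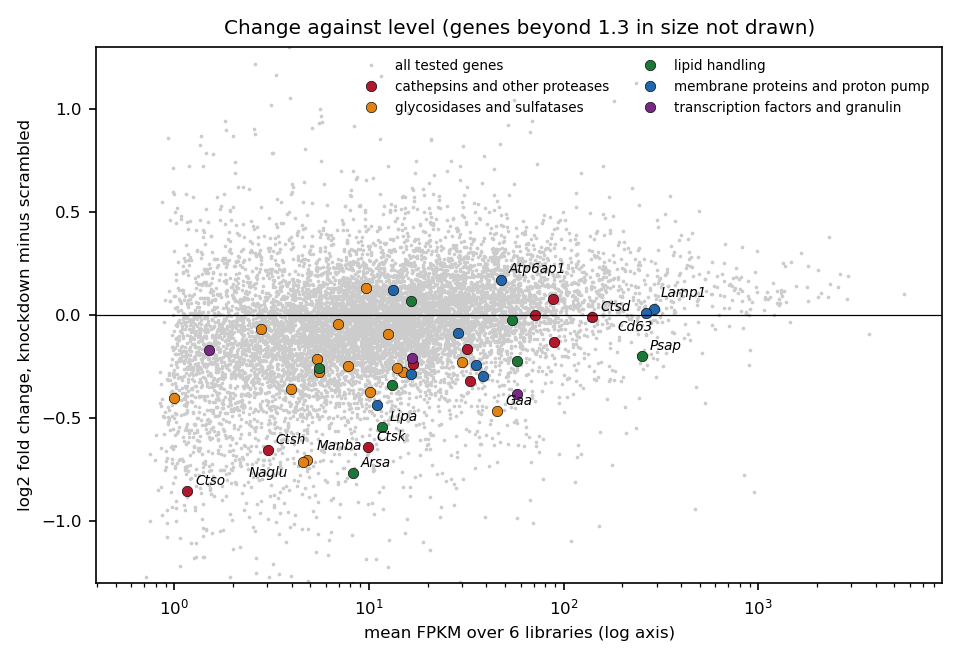
Log2 fold change (knockdown minus scrambled) against the mean FPKM over 6 libraries (log axis), with all tested genes in grey and lysosomal genes coloured by class. Genes changed by more than 1.3 in size are not drawn. Between 3 and 100 FPKM most coloured points lie below 0. Above 100 FPKM, Lamp1, Cd63 and Ctsd lie near 0 and Psap lies below it, at −0.20.

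Other genes of the lysosome and its control were taken as 6 lists. Of 102 tested genes in these lists 39 (38.2%) were lower and 12 (11.8%) higher, with a median log2 fold change of −0.07. Over all tested genes 31.1% were lower and 19.8% higher, with a median of −0.05. The median of the 102 pooled genes thus lay near the background, but single lists did not all do so. Of other hydrolases 52.4% were lower, of other membrane proteins 47.1% and of autophagy genes 45.8%. Of sorting genes 33.3% were lower, of other V-ATPase subunits 23.1% and of genes that control TFEB and TFE3 8.33%. The differences of the lists from each other and from the members were not tested. With median centring 32 of the 102 genes were lower and 23 higher, and after rescaling to TPM 49 and 6. Among 21 other hydrolases and their activators 11 were lower and 2 higher (median −0.21). Man2b2, an alpha-mannosidase, fell from 5.38 ± 0.438 to 2.88 ± 0.232 FPKM (−0.80 ± 0.08, limma adjusted p = 9.13e-05). Of 17 other membrane proteins 8 were lower and 1 higher (median −0.18), among them Tpcn1, an ion channel (−0.38), Abca2, a lipid transporter (−0.44), and Laptm4b (−0.30), all lower.

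Sorting genes and the rest of the proton pump showed no shared direction. Of 15 genes of mannose 6-phosphate tagging and sorting 5 were lower and 3 higher (median 0.00, with a sign that turned between alternatives). Igf2r, the large mannose 6-phosphate receptor, fell from 23.1 ± 0.445 to 16.3 ± 0.275 FPKM (−0.48 ± 0.04, limma adjusted p = 3.06e-05), and Sort1, sortilin, fell from 1.25 ± 0.0489 to 0.541 ± 0.0627 FPKM (−0.75 ± 0.09). Vps26a, a subunit of the retromer that recycles these receptors, rose by 0.20. Of 13 other V-ATPase subunits 3 were lower and 3 higher (median 0.02), with Atp6v0a1 (−0.44) and Atp6v1d (−0.16) lower and Atp6v0c (0.12) higher. Atp6v1d did not pass with median centring (−0.09, limma adjusted p = 0.0581), nor Atp6v0c on the TPM scale (0.07, adjusted p = 0.0502) or after quantile normalization (0.07, adjusted p = 0.0511). The 3 higher calls fell to 0 after rescaling to TPM.

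**Figure D4:**
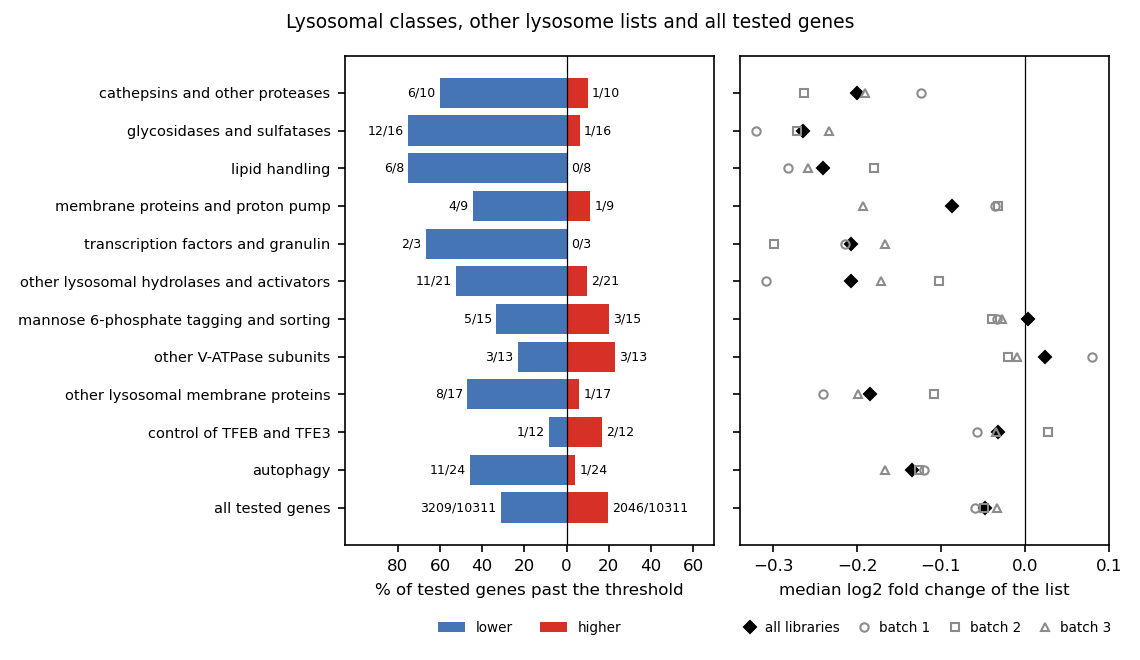
Left, percent of tested genes of each class or list that passed an adjusted p of 0.05, lower to the left and higher to the right, with counts. Right, the median log2 fold change (knockdown minus scrambled) over all libraries and within each batch. The glycosidase and lipid classes reach 75.0% lower, the sorting and V-ATPase lists lie near 0, and all tested genes stand at 31.1% lower.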

How the data were processed

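Messenger RNA of 6 libraries was sequenced, and the authors deposited 1 table of FPKM values per gene and library. Builds GRCm38, mm10 and GRCm39 appear in the submitters' processing notes with no role; aligner, counting tool and strand setting were not given in the sources used here, so reads of overlapping genes cannot be told apart. Whole fragments were recovered from the FPKM steps for all 19877 genes, as the smallest whole numbers that fitted (within 0.002, or 0.02 for very abundant genes), and tested members had 57 to 29834 per library. No libraries of a group agreed within sampling noise (chi-square per gene 3.14 to 11.4).

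Genes reaching an FPKM of 1 in 3 or more libraries were tested on log2(FPKM + 0.5) with limma 3.58.1 in R 4.3.3 (two-sided; threshold 0.05; variance trend, Benjamini-Hochberg over 10311 genes, tested on simulated data). Fold changes on this scale understate changes of low genes. Errors are SE for fold changes and SD (n = 3) for FPKM. Libraries of 1 number share a labelled batch, which pairs them. Correlations of deviations were 0.09, 0.01 and 0.19 within batches and −0.17 to 0.11 across batches. The main fit did not use this pairing. The members and lists were chosen with earlier results of these data known. Values by library are given for members below the minimum, changed by at least 0.4, or among the 4 of smallest p in a class, and up to 3 genes are named per other list, of which some are not reported here. Promoters came from RefSeq on GRCm38.p6.
Alternatives were pseudocounts of 0.1 and 1, no minimum, a mean FPKM of at least 5, TPM, median centring, quantile normalization, no trend, limma-voom on recovered fragments, a replicate block and leaving out each library.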

Additional observations from a re-analysis of the deposited data

How the results depend on the processing

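Of the 30 members called lower, 24 passed under every alternative in which they were tested, and of the 3 called higher, 1 did. The number lower ran from 24 (mean FPKM of at least 5, with fewer genes tested) to 33 (TPM). With batch as a replicate block 31 were lower and 3 higher, and only the call of Ctsa changed. The number higher was 1 with TPM, 6 with median centring and 1 to 2 without 1 library. It was 1 without scrambled library 1, 2 or 3 or knockdown library 2 or 3. The members' median was −0.29 with TPM, −0.17 with median centring, −0.19 after quantile normalization and −0.25 to −0.20 without 1 library. The 1 protease called higher was 0 with TPM, quantile normalization, no trend and without any 1 library, and the 1 glycosidase was 0 with no filter, TPM and 0 to 1 without 1 library. The glycosidase median was −0.31 with TPM, −0.20 with median centring, −0.19 after quantile normalization and −0.32 (without knockdown library 3) to −0.25 without 1 library. With median centring 1 lipid gene and 3 membrane genes were higher and the lipid median was −0.17; after quantile normalization 2 membrane genes were higher. The median of the transcription factors and granulin was −0.30 at a mean FPKM of at least 5. Of the other lysosomal genes, 7 were higher with no filter, 6 with TPM and 23 with median centring, and their median was −0.12, −0.01 and −0.05 with TPM, median centring and quantile normalization and −0.10 to −0.05 without 1 library. The sorting median turned to −0.01 at a mean FPKM of at least 5, −0.04 with TPM, −0.03 after quantile normalization and −0.04 to 0.01 without 1 library, and that of TFEB and TFE3 control to 0.03 with median centring. The cause of these shifts was not tested. Groups of 3 limit the precision, and low members such as Ctsf and Cln3 rest on few fragments.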

Other observations

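Autophagy genes, whose products deliver cargo to the lysosome, were lower more often than higher. Of 24 tested genes 11 (45.8%) were lower and 1 (4.17%) higher, with a median log2 fold change of −0.14. Among all tested genes 31.1% were lower and 19.8% higher, with a median of −0.05, and the difference was not tested. The selective receptors Nbr1 and Sqstm1 and the LC3 gene Map1lc3a were among those that fell. Nbr1 was 18.8 ± 0.203 FPKM in scrambled and 12.4 ± 0.462 FPKM in knockdown libraries (log2 fold change −0.58 ± 0.04, limma adjusted p = 2.61e-05). Sqstm1 was 78.3 ± 4.37 and 59.0 ± 1.49 FPKM (−0.40 ± 0.04, adjusted p = 0.000135), and Map1lc3a 32.6 ± 1.98 and 20.3 ± 3.03 FPKM (−0.68 ± 0.09, adjusted p = 0.000496).

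Genes that control TFEB and TFE3 at the lysosome changed little. Of 12 tested genes 1 was lower, 2 higher and 9 did not pass, with a median of −0.03. The Ragulator subunit Lamtor2 fell by 0.17 and Lamtor3, a subunit of the same complex, rose by 0.22 on the log2 scale (limma adjusted p = 0.00397 and 0.00454). The Rag GTPase gene Rragc rose by 0.11 (adjusted p = 0.041). It did not pass without the minimum on level, without the trend, after rescaling to TPM or quantile normalization, or without scrambled library 1 or 2 or knockdown library 2 or 3. With median centring 4 genes of this list were higher and 1 lower.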
